A study of Schmidtea mediterranea with 2 samples.

Results

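The cells described here are a class of planarian trunk cells marked by 2 transcripts, SMESG000002628.1 and SMESG000025209.1. Members were chosen by measured counts. A cell barcode with at least 200 detected genes belonged to the class if it held at least 3 unique molecular identifiers (UMIs, 1 per captured transcript) of the 2 genes together and if these made up at least 0.3% of all its UMIs. The rule found 678 of 12759 kept cells, 424 of 6781 in the foxA RNAi library and 254 of 5978 in the control RNAi library.

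The planarian Schmidtea mediterranea, strain CIW4 in the labels, rebuilds its organs from dividing stem cells, whose progeny replace every differentiated cell type. The trunk holds the pharynx, the muscular feeding tube of the animal, together with gut, muscle, epidermis and nerves. The gene foxA encodes a forkhead transcription factor that planarians need to make the pharynx. In RNA interference (RNAi), double-stranded RNA lowers the transcript of the same sequence. 1 library came from animals given foxA RNAi and 1 from animals given control RNAi, both of the same strain. The control double-stranded RNA, the length of the treatment and the time of sampling were not given in the sources used here. For each condition, trunks of 50 animals were pooled and dissociated, and nucleated cells that took up a viability dye were sorted before droplet-based 3′ sequencing. The deposited files do not pair the SMESG identifiers with gene names, so no gene is given a role here, the class is given no cell type name, and no value for the targeted gene foxA can be given as a check of the labels.

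There was 1 library per condition. Every difference is therefore between 2 libraries, with no replicate check, no test and no p-value. Intervals are exact 95% intervals that cover counting error only, not differences between animals or preparations. Those of UMI sums and their ratios treat each UMI as independent, so they also leave out the spread between cells. The libraries held 7852495 UMIs (foxA) and 4329019 UMIs (control), and 13 barcodes occurred in both. 1 class cell of each library carried such a barcode, and no barcode was in the class in both libraries. No doublets were removed.

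The 2 rule genes were concentrated in the class in both libraries. These values chose the members and are given as a description. SMESG000002628.1 had 4656 UMIs in the class cells of the foxA library, or 7528 CPM (the gene's UMIs scaled to a total of 1000000 over the cells summed, with an interval of 7313 to 7747), against 22.4 CPM in all other foxA cells. In the control library it had 1577 UMIs, 6332 CPM (6023 to 6653), in class cells and 15.3 CPM in the others. SMESG000025209.1 reached 5957 CPM (5766 to 6152) in foxA class cells and 28.2 CPM in other foxA cells, and 4706 CPM (4440 to 4983) in control class cells and 31.9 CPM in other control cells. Class cells held 96.6% (foxA) and 96.2% (control) of the UMIs of SMESG000002628.1. For SMESG000025209.1 the corresponding shares were 94.8% (foxA) and 90.1% (control). A UMI of SMESG000002628.1 was found in 96.7% of foxA class cells and 1.84% of other foxA cells, and in 96.5% of control class cells and 0.874% of other control cells.

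Within the class, the pair was mostly found together. Members were chosen by the UMIs of these same genes summed, at least 3 per cell. Such cells can more easily show both genes, so the counts describe the chosen cells only. Both genes were detected in 401 of the foxA class cells (94.6%) and in 229 of the control class cells (90.2%). Of the remaining foxA class cells, 9 held only SMESG000002628.1 and 14 only SMESG000025209.1. The control class had 16 cells with only SMESG000002628.1 and 9 with only SMESG000025209.1. A class cell had a median of 15 UMIs of the pair in the foxA library and 9 in the control library.

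The class rests on a cut through a continuous measure, and some cells lay near it. Just outside it, 39 foxA cells and 28 control cells held 2 UMIs of the pair, and 28 foxA cells and 7 control cells held 3 or more that made up less than 0.3% of their UMIs. Just inside it, 10 foxA class cells and 26 control class cells held exactly 3 UMIs. The lowest share among members was 0.304% of a cell's UMIs in the foxA library and 0.315% in the control library. The content of the 16 genes that lead the class profile is given beside the cut as a description, since these genes were chosen as high in the class under it. They took a median of 0.727% of the UMIs of foxA cells with 2 UMIs of the pair and 4.88% in foxA class cells with 3. In the control library the medians were 0.308% with 2 UMIs and 2.40% in class cells with 3. Cells with 3 or more UMIs of the pair that made up less than 0.3% lay between, at 1.54% (foxA) and 1.15% (control). Class cells with 6 or more UMIs of the pair had medians of 7.31% (389 foxA cells) and 6.57% (192 control cells), while cells with none had a median of 0 in both libraries.

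**Figure D1:**
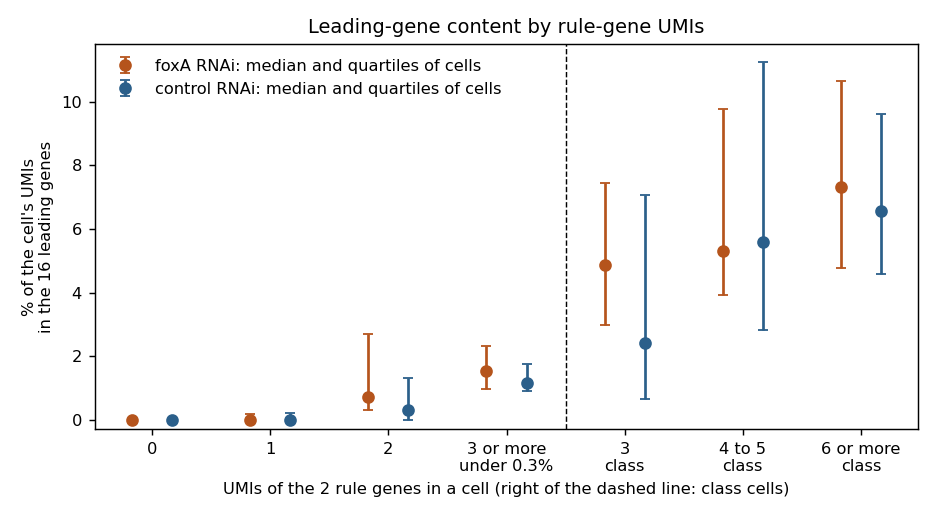
Share of a cell's UMIs in the 16 leading genes (vertical axis, %) by the number of UMIs of the 2 rule genes (horizontal axis). Points are medians over cells and bars run between the quartiles, with foxA RNAi to the left of control RNAi in each bin. Medians stay at or below 1.54% outside the class and lie at 2.40% or more inside it.

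The class had a broad profile that was alike in both libraries. Profiles were set out as log2 of (CPM + 10) in class cells over (CPM + 10) in all other kept cells, within each library, for 11624 genes other than the 2 of the rule. The class was cut from the same libraries by 2 of their genes, so the counts that follow describe it and test nothing. In both libraries, 517 genes were at least 4-fold higher in the class (4.45% of those compared) and 341 were at least 4-fold lower (2.93%). The foxA library alone had 589 such higher genes, of which 87.8% were also higher in the control library. The control library alone had 643, of which 80.4% were also higher in the foxA library. Across genes the log2 ratios of the libraries correlated with r = 0.895, a description, since genes are not independent replicates.

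The share of UMIs in the 517 genes is a description, since they were chosen as higher in these same class cells. The 517 genes took 30.4% of the UMIs of class cells and 2.18% of those of other cells in the foxA library. In the control library they took 30.8% in class cells and 1.64% in other cells. Each of 80 genes was at least 16-fold higher in the class in both libraries. The middle of all genes compared lay at log2 ratios of -0.61 (foxA) and -0.60 (control). With TMM factors, a scaling that sets the middle of the genes closer to 0, these medians were -0.23 (foxA) and -0.28 (control), with 694 genes at least 4-fold higher and 158 at least 4-fold lower. With the mean of per-cell CPM there were 530 higher and 559 lower.

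**Figure D2:**
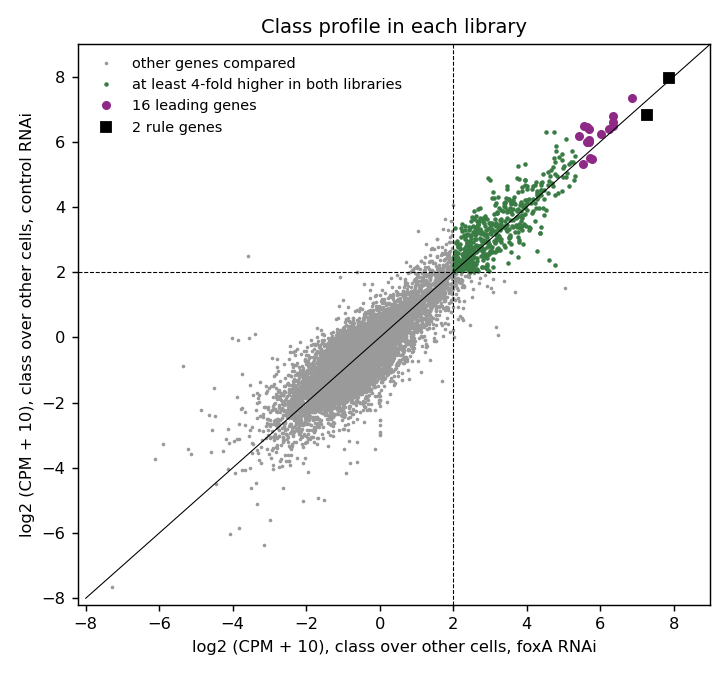
Log2 ratio of (CPM + 10), class cells over other cells, in the foxA RNAi library (horizontal axis) and in the control RNAi library (vertical axis), 1 point per gene. Green and purple points together are the 517 genes at least 4-fold higher in both libraries (beyond the dashed lines), with the 16 leading genes in purple. Black squares are the 2 rule genes, and the points follow the diagonal with r = 0.895.

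The most abundant of the leading genes was SMESG000055421.1. It had 26170 UMIs in foxA class cells, 42313 CPM (41802 to 42829), against 509 CPM in other foxA cells. In the control library it had 8844 UMIs, 35511 CPM (34775 to 36259), in class cells and 313 CPM in others. A UMI of it was found in 96.2% of foxA class cells and 95.3% of control class cells. It was also found in 7.98% of other foxA cells, at a median depth of 884 UMIs per cell, and in 4.05% of other control cells, at a median of 554 UMIs. With every cell thinned to 400 UMIs, these shares of other cells were 4.50% (foxA) and 2.81% (control). Its level exceeded those of both rule genes.

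SMESG000038351.1 had the highest ratio to other cells that held in both libraries with the pseudocount of 10 CPM. With 1 CPM, the lower of its ratios in the 2 libraries was 7.15, below those of SMESG000059878.1 (8.11) and SMESG000065495.1 (7.22). Its level was 5745 CPM in foxA class cells and 39.3 CPM in other foxA cells, with a log2 ratio of 6.87. It was 5774 CPM in control class cells and 25.7 CPM in other control cells, with a log2 ratio of 7.34. SMESG000059878.1 came next with 10 CPM and was the most confined of the 16 genes, with 97.0% of its foxA UMIs and 96.8% of its control UMIs in class cells. It was found in 56.4% of foxA class cells and 0.220% of other foxA cells, and in 47.6% of control class cells and 0.122% of other control cells. SMESG000080919.1 stood at 3349 CPM in foxA class cells and 2891 CPM in control class cells. SMESG000012051.1 stood at 3077 CPM (foxA) and 2361 CPM (control) in class cells.

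The other leading genes had between 462 and 2518 CPM in class cells. In falling order of the ratio to other cells, with 10 CPM, they were SMESG000065495.1, SMESG000080705.1, SMESG000070072.1, SMESG000013666.1, SMESG000015232.1, SMESG000070256.1, SMESG000077798.1, SMESG000068371.1, SMESG000023567.1, SMESG000056251.1 and SMESG000024875.1. The share of a leading gene's UMIs that lay in class cells was between 83.5% and 97.0% in the foxA library and between 82.7% and 96.8% in the control library. Together the 16 genes took 7.17% of the UMIs of class cells and 0.0831% of those of other cells in the foxA library. Their control shares were 6.41% in class cells and 0.0521% in other cells.

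Detection differed among the leading genes. SMESG000077798.1 was found in only 19.8% of foxA class cells and 29.1% of control class cells, although its level was 721 CPM (foxA) and 1189 CPM (control), with up to 39 UMIs in a foxA class cell and 26 in a control class cell. SMESG000024875.1 was found in 51.2% of foxA class cells and 30.3% of control class cells. After thinning, SMESG000024875.1 was found in 21.5% (foxA) and 19.6% (control) of class cells. SMESG000077798.1 was then found in 12.0% (foxA) and 23.0% (control).

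**Figure D3:**
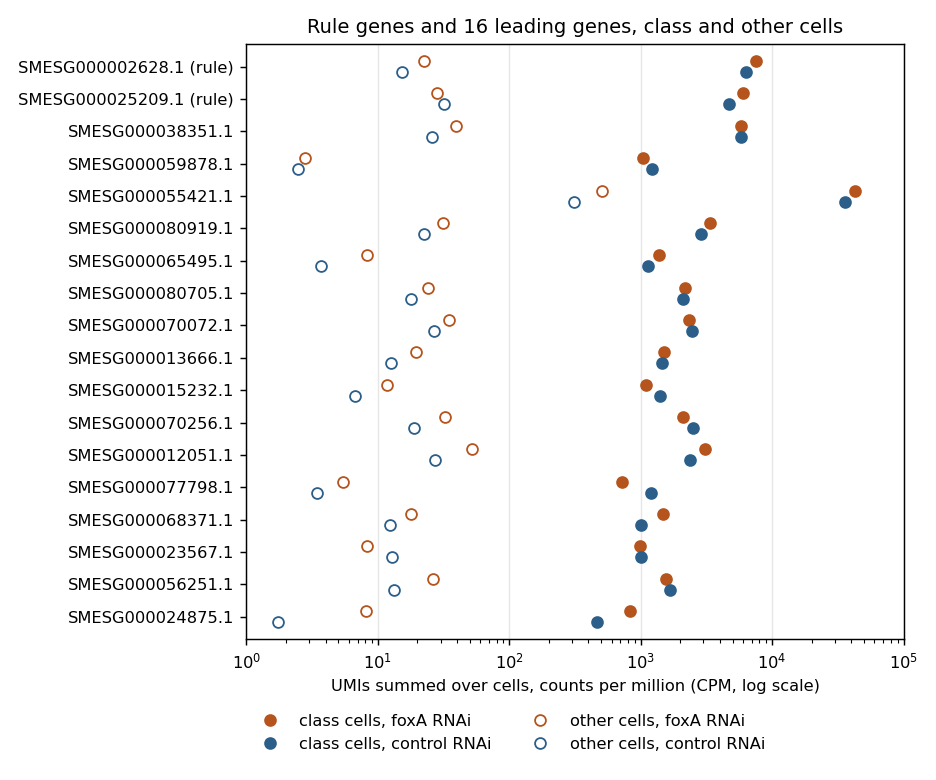
Levels of the 2 rule genes and the 16 leading genes in CPM on a log scale, with UMIs summed over class cells (filled) and over all other cells (open), foxA RNAi above control RNAi for each gene. Leading genes lie between 462 and 42313 CPM in class cells and between 1.73 and 509 CPM in other cells.

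The 4 genes lowest in the class relative to other cells were SMESG000061316.1, SMESG000073870.1, SMESG000040636.1 and SMESG000061302.1. SMESG000061316.1 had 0 UMIs in the class cells of either library, which allows up to 3 in each if UMIs are independent. It had 1547 CPM in other foxA cells and 2016 CPM in other control cells. It was carried by few cells, 52 other foxA cells (0.818%) and 44 other control cells (0.769%). A foxA cell held up to 1262 UMIs of it and a control cell up to 1280, so 1 cell can exceed that allowance. SMESG000061302.1 also had 0 UMIs in the class and was found in 0.472% of other foxA cells and 0.280% of other control cells. SMESG000073870.1 was not found less often in the class. It was in 1.42% of foxA class cells and 1.43% of other foxA cells, and in 2.36% of control class cells and 1.89% of other control cells. Class cells held at most 1 UMI of it, while other cells held up to 147 (foxA) and 140 (control). Each of the 4 genes was found in at most 1.43% of other foxA cells and 1.90% of other control cells, so all were genes of few cells.

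Unsupervised clustering placed nearly all class cells in 1 cluster, which also held other cells. Of 26 clusters of all kept cells, 1 held 409 foxA class cells (96.5%) and 243 control class cells (95.7%), and class cells made up 77.2% of it. Clustered without the 2 rule genes, 1 cluster held 411 foxA and 242 control class cells, and class cells made up 74.0% of it. The other members of the main cluster were 113 foxA cells and 80 control cells that did not meet the rule. A UMI of a rule gene was present in 67 of these foxA cells and 35 of these control cells. Their median content of the 16 leading genes was 0.908% (foxA) and 0.706% (control), against a class median of 6.88% over both libraries.

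Few class cells carried the markers of other trunk cell classes. Taking 10 marker genes of other classes, each counted in a cell with at least 3 UMIs that made up at least 0.3% of its total, 20 foxA class cells (4.72%) and 18 control class cells (7.09%) held such a marker, against 37.7% of other foxA cells and 33.5% of other control cells. The other cells include the classes that these genes mark, so their higher shares were set in part by the choice of markers. SMESG000036375.1, the commonest of these markers, met this threshold in 6 foxA class cells against 1188 other foxA cells, and in 3 control class cells against 689 other control cells. The marker met most often in class cells was SMESG000029602.1, in 10 foxA class cells and 8 control class cells. Markers SMESG000061387.1, SMESG000075230.1, SMESG000075928.1 and SMESG000017804.1 met it in 0 class cells of either library, which allows up to 3 cells in each.

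Among the 6 of these classes with at least 50 cells in all and 10 in each library, cells marked by SMESG000019976.1 were most like the class, with r = 0.64 (foxA) and 0.65 (control) across genes on log2 of (CPM + 10). They were 57 foxA cells and 124 control cells outside the class, with 51901 UMIs (foxA) and 81609 UMIs (control). Compared directly in both libraries, 495 genes were at least 4-fold higher in the class than in those cells (4.26% of 11624) and 230 were at least 4-fold lower (1.98%). All 16 leading genes were among the 495. Of the 517 genes at least 4-fold higher in the class than in all other cells, 285 (55.1%) were among them, and both counts rest on the same class cells. SMESG000002628.1 had 0 UMIs in those foxA cells and 1 UMI in those control cells. SMESG000025209.1 was present there, at 385 CPM (20 UMIs) in foxA cells and 576 CPM (47 UMIs) in control cells. The second rule gene was thus less confined than the first. Genes high in both kinds of cell, chosen after their values were seen, included SMESG000049097.1. It had 817 CPM in foxA class cells, 1676 CPM in foxA cells marked by SMESG000019976.1 and 16.3 CPM in the rest of the foxA cells. Its control levels were 831 CPM in class cells, 1532 CPM in cells marked by SMESG000019976.1 and 13.1 CPM in the rest.

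The class made up a larger share of kept cells in the foxA library, and the difference depended on the depth of the cells. It was 6.25% of foxA cells (5.69% to 6.86%) and 4.25% of control cells (3.75% to 4.79%), a log2 ratio of 0.56 (0.33 to 0.79). Cells with fewer than 500 UMIs made up 8.38% of kept cells in the foxA library and 40.9% in the control library. Few of them met the rule, which asks for at least 3 UMIs of the pair at any depth. Those that did were 17 of 568 foxA cells (2.99%) and 38 of 2443 control cells (1.56%). Among cells with at least 500 UMIs, the class was 6.55% of foxA cells (5.95% to 7.19%) and 6.11% of control cells (5.34% to 6.95%), a log2 ratio of 0.10 with an interval of -0.14 to 0.35 that spans 0. The difference in share was thus smaller among these deeper cells than over all kept cells, and shallow cells, of which few met the rule, were more frequent in the control library.

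Within narrower ranges of depth the order of the libraries was not constant. From 500 to under 1000 UMIs the share was 4.21% of foxA cells (137 class cells) and 4.92% of control cells (123 class cells). From 1000 to under 2000 UMIs it was 8.18% of foxA cells and 9.50% of control cells. From 2000 to under 4000 UMIs it was 12.1% of 720 foxA cells (9.79% to 14.7%) and 5.99% of 167 control cells (2.91% to 10.7%). Of the 5 ranges in all, only this one and that under 500 UMIs had an interval of the log2 ratio above 0. The lowest barcode had 440 UMIs in the foxA library and 286 UMIs in the control library. Cells under 500 UMIs were therefore not of like depth in the 2 libraries, and that range is no comparison at equal depth.

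**Figure D4:**
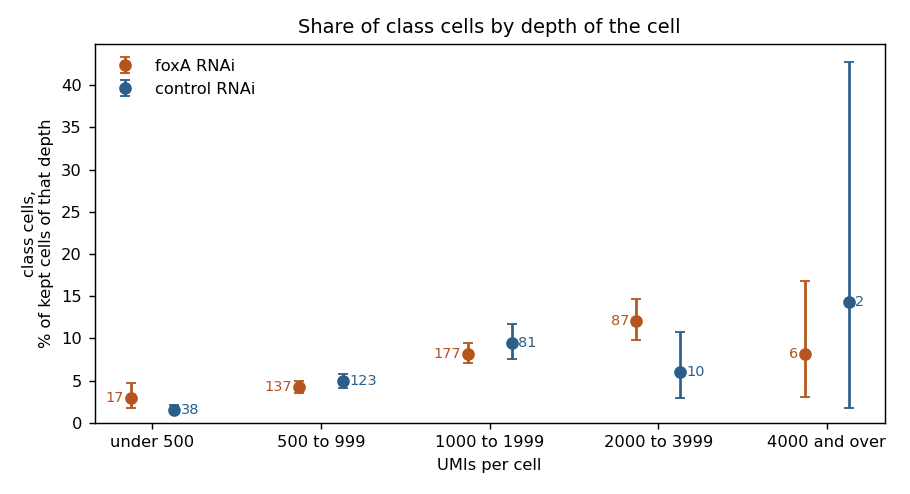
Class cells as a percentage of the kept cells in each range of UMIs per cell, foxA RNAi to the left of control RNAi, with exact 95% intervals and the number of class cells beside each point. The foxA share is above the control share under 500 UMIs and from 2000 to under 4000 UMIs and below it in the other 3 ranges. The range under 500 UMIs starts at 440 UMIs in the foxA library and 286 UMIs in the control library.

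Thinning every cell to 400 UMIs left out 1438 shallower control cells, 19 of them class cells, and 0 foxA cells. The members chosen on all UMIs were then 6.25% of foxA cells (424 of 6781) and 5.18% of control cells (235 of 4540, 4.55% to 5.86%), a log2 ratio of 0.27. When the rule was applied again to the thinned counts, it found 343 foxA cells (5.06%) and 180 control cells (3.96%), a log2 ratio of 0.35. The ratio remained above 0 in all 12 alternatives run, between 0.093 (cells with at least 500 genes) and 0.91 (rule genes at 1% or more of UMIs).

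Class cells were deeper than other cells in both libraries. The rule asks for at least 3 UMIs of the pair, which shallow cells reach less easily, so depth is not given as a trait of the class. Thinned to 400 UMIs, 341 of 424 foxA members and 180 of 235 control members still met the rule. On all UMIs, the median of class cells was 1250 UMIs and 758 genes in the foxA library, against 884 UMIs and 618 genes in other foxA cells. In the control library it was 798 UMIs and 530.5 genes in class cells and 554 UMIs and 407 genes in others. The ratio of medians, foxA over control, was 1.57 (1.29 to 1.79) in the class and 1.60 in other cells. Class cells used fewer genes at equal depth. Thinned to 400 UMIs, they had a median of 299 genes (foxA) and 290 genes (control), while other cells had 329 genes (foxA) and 318 genes (control).

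Between foxA and control class cells, the rule genes and the 16 leading genes are given as a description. The rule sets a floor on the level of its 2 genes in every member, and the 16 genes were chosen as high in the class in both libraries. On log2 of (CPM + 1), foxA over control, SMESG000002628.1 differed by 0.25 (0.17 to 0.33) and SMESG000025209.1 by 0.34 (0.24 to 0.44). With members required to hold the pair at 1% or more of UMIs, the ratio was 0.082 for SMESG000002628.1 and 0.16 for SMESG000025209.1. Thinned, SMESG000002628.1 had 7636 CPM in foxA class cells and 6564 CPM in control class cells, and SMESG000025209.1 had 6232 CPM (foxA) and 4894 CPM (control). Of the 16 leading genes, 0 were 2-fold or more apart in either direction. Their log2 ratios had a median of 0.03 and ran from -0.72 (SMESG000077798.1) to 0.83 (SMESG000024875.1), with 8 above 0 and 8 below it. With TMM factors 8 were above 0 and 8 below, and with the mean of per-cell CPM 9 were above 0 and 7 below. Thinned, the range was -0.84 to 0.40.

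In cells outside the class, the low levels of the same 16 genes had a median log2 ratio of 0.59, foxA over control. The class supplied 7.89% of all UMIs in the foxA library and 5.80% in the control library. The part of free RNA in this was not tested.

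Across all genes, the class differed between the libraries at more genes than the rest of the cells did. Of 3237 genes with at least 50 UMIs in class cells, 178 were at least 2-fold higher in the foxA class (5.5%) and 90 at least 2-fold lower (2.78%). In all other cells, the same genes gave 105 higher (3.24%) and 37 lower (1.14%). Other cells supplied far more UMIs, so counting error was smaller there, and the part of counting error in the larger count was not tested. The median log2 ratio of these genes was 0.12 in the class and 0.13 in other cells. The median size of the log2 ratio was 0.34 in the class and 0.22 in other cells.

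Genes of the class profile were chosen as high in the class in both libraries, so their counts in this comparison are a description. Of the 517 genes at least 4-fold higher in the class, 501 were compared between the libraries, with 13 at least 2-fold higher (2.59%) and 15 at least 2-fold lower (2.99%) in foxA class cells and a median of 0.06. This stands beside 5.5% and 2.78% over all genes compared. After thinning to 400 UMIs, 906 genes reached 50 UMIs, with 37 at least 2-fold higher (4.08%) and 29 at least 2-fold lower (3.20%). Of the 268 genes that were 2-fold apart before thinning, 11 took over 50% of their UMIs from 1 cell in the library where they were higher, and 173 were found in at least 10% of the class cells of that library.

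The 2 highest and the 2 lowest ratios in the class each rested on 1 cell. SMESG000044171.1 had 64 UMIs in foxA class cells, 63 of them in 1 cell, and 0 in control class cells. SMESG000011275.1 had 63 UMIs in 1 foxA class cell and 0 in control class cells. SMESG000024498.1 had 1 UMI in foxA class cells and 436 in control class cells, 435 of them in 1 cell. SMESG000048209.1 had 0 UMIs in foxA class cells and 78 in control class cells, 77 of them in 1 cell. With the class cell richest in each gene left out, at most 1 UMI of it remained in the class cells of either library, so these are values of single cells and not of the class.

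Genes spread over many class cells differed too. The genes named next were chosen after their values were seen, first the 2 highest and 2 lowest ratios among genes found in at least 25% of the class cells of 1 library. SMESG000041448.1 had 421 UMIs in 106 foxA class cells (25%), 681 CPM, and 6 UMIs in 4 control class cells (1.57%), 24.1 CPM. Its log2 ratio was 4.76 (3.69 to 6.27), and it was 3.48 in other cells, so this difference was shared by both kinds of cell. Thinned, it was found in 15.1% of foxA class cells and 0.851% of control class cells.

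SMESG000062836.1 differed more in the class than outside it. It had 980 UMIs in 151 foxA class cells (35.6%), 1585 CPM, and 33 UMIs in 21 control class cells (8.27%), 133 CPM. The log2 ratio was 3.57 (3.08 to 4.13) in the class. In other cells it was 0.46, with 483 CPM in foxA cells and 350 CPM in control cells. In the foxA library it was therefore higher in class cells than in others, and in the control library lower. Thinned, it was found in 21.2% of foxA class cells and 7.23% of control class cells, and the log2 ratio was 3.12. Of the 106 foxA class cells with SMESG000041448.1, 53 also held SMESG000062836.1.

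SMESG000018458.1 was nearly confined to the class and was found mostly in the foxA library. It had 230 UMIs in 42 foxA class cells (9.91%), with up to 30 in a cell, and 5 UMIs in 3 control class cells (1.18%). The log2 ratio was 4.14 (2.97 to 5.85), and 3.41 after thinning. Outside the class it had 12 UMIs in the foxA library and 2 in the control library, so 95% of its foxA UMIs lay in class cells. Of the 42 foxA class cells, 12 also held SMESG000041448.1 (28.6%) and 22 held SMESG000062836.1 (52.4%), against 25% and 35.6% of all foxA class cells.

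SMESG000019342.1 and SMESG000019977.1 were lower in the foxA class. SMESG000019342.1 had 509 CPM in foxA class cells, with a UMI in 29.2% of them, and 1743 CPM in control class cells, with a UMI in 52.4%. Its log2 ratio was -1.77 (-1.99 to -1.56) in the class and 0.22 in other cells, where it had 57.7 CPM (foxA) and 49.4 CPM (control). Thinned, it was found in 14.4% of foxA class cells and 38.3% of control class cells. SMESG000019977.1 had 194 CPM in foxA class cells (17.2% of them) and 843 CPM in control class cells (31.9%). Its log2 ratio was -2.11 (-2.46 to -1.79) in the class and -1.47 in other cells. The lower level in foxA cells was thus seen for SMESG000019977.1 in both kinds of cell and for SMESG000019342.1 in the class, with class cells summed.

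**Figure D5:**
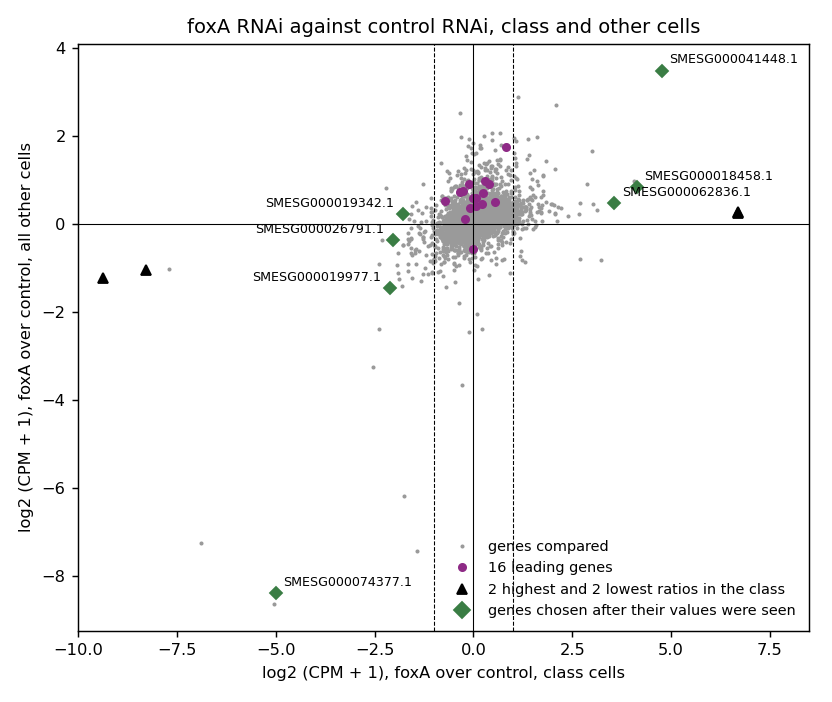
Log2 ratio of (CPM + 1), foxA RNAi over control RNAi, in class cells (horizontal axis) and in all other cells (vertical axis) for genes with at least 50 UMIs in class cells. Triangles are the 2 highest and 2 lowest ratios in the class (the 2 highest overlap), diamonds the genes chosen after their values were seen and purple points the 16 leading genes, which lie between -0.72 and 0.83 in the class. Dashed lines mark 2-fold.

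Class cells were not uniform. Clustered on their own they fell into 10 subgroups, numbered by size. The 2 largest, with 180 and 154 cells over both libraries, had 2 and 0 genes at least 4-fold above the rest of the class. The genes named for subgroups were used to form them and are a description. Subgroup 1 was led by SMESG000006948.1, SMESG000077798.1 and SMESG000076464.1, so a leading gene of the whole class varied within it. Subgroup 4 (60 foxA and 30 control cells) was led by SMESG000015124.1, found in 31.1% of its cells, with 5 UMIs in other foxA cells and 3 UMIs in other control cells of the trunk. Subgroup 5 (39 foxA and 18 control cells) was led by SMESG000009877.1, at 3794 CPM in it and 28.3 CPM in the rest of the class. The lower level of SMESG000019342.1 in the foxA class was not uniform across subgroups. It was found in 46.7% of foxA cells and 76% of control cells of subgroup 1. In subgroup 4 it was found in 8.33% (foxA) and 6.67% (control).

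Some subgroups carried genes of other trunk cells. Subgroup 3 (67 foxA and 25 control cells) was led by SMESG000036375.1 and subgroup 6 (26 foxA and 11 control cells) had SMESG000029602.1 among its first 3 genes, both markers of other classes. SMESG000036375.1 stood at 763 CPM in subgroup 3 and was found in 34.8% of its cells. That was below its level in non-class cells, 1510 CPM (foxA) and 1271 CPM (control). SMESG000029602.1 stood at 6799 CPM in subgroup 6 and was found in 19 of its 37 cells, against 1540 CPM in non-class foxA cells and 2336 CPM in non-class control cells. Subgroup 10 (5 foxA and 6 control cells) was led by SMESG000024991.1, another such marker. The parts of doublets and of free RNA in these subgroups were not tested.

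A small, sharply defined subgroup, singled out of the 10 after its values were seen, was marked by SMESG000026791.1. All 20 of its cells held the gene, at 43312 CPM, against 20.03 CPM in the rest of the class, 12.3 CPM in non-class foxA cells and 16.3 CPM in non-class control cells. The subgroup was 6 of the 424 foxA class cells (1.42%, 0.521% to 3.05%) and 14 of the 254 control class cells (5.51%, 3.05% to 9.08%). It was recovered with the same 20 cells at 2 other resolutions and with 3000 variable genes. These clusterings gave 7, 12 and 10 groups and used the same class cells, so they are no independent check. The other subgroups were recovered less well in at least 1 of these clusterings. Their lowest overlaps, as cells in both groups over cells in either, were between 43.9% (subgroup 2) and 56.8% (subgroup 6) for subgroups 1 to 6, 35.9% for subgroup 7, 9.63% for subgroup 9 and 8.15% for subgroup 10. The median log2 ratio of its 10 leading genes between its foxA and control cells was 0.02. SMESG000026791.1 itself was found in 7 foxA class cells and 17 control class cells.

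Subgroup 9 came almost wholly from the control library, with 1 foxA cell and 12 control cells, but its leading genes also differed between the libraries outside the class. SMESG000074377.1, found in all 13 of these cells, had 2 UMIs in the 6357 foxA cells outside the class and 1739 UMIs in the 5724 control cells outside it. Clustered without the 1126 genes at least 2-fold apart between libraries in other cells, the 13 cells fell within a group of 77 foxA cells (18.2% of the class) and 47 control cells (18.5%). No count of this subgroup is therefore compared between the conditions.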

How the data were processed

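The deposited values were raw UMI counts per gene and cell barcode, not normalized, with 22016 features in each of the 2 libraries. Per the file headers, the authors wrote the matrices with Cell Ranger 6.1.2, while the submitters' processing notes name version 7. The labels give a version of the 3′ kit, enzymatic removal of 16S sequence with 30 guides, and a further amplification. The genome build and annotation were not given in the sources used here, so reads shared by near-identical genes could not be assessed.

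Barcodes with under 200 genes were removed (17 foxA, 78 control). The class rule and the marker lists were chosen with earlier results of these data known. UMIs were summed over cells, with pseudocounts of 10 CPM for class over other cells (at least 20 UMIs in the class or 100 in all cells) and 1 CPM for foxA over control (at least 50 UMIs in class cells). A pseudocount understates the ratio of low genes, and a ratio against 0 UMIs depends on it. "At least 4-fold" and "at least 2-fold" are sizes, not tests. Shares have exact Clopper-Pearson intervals, sums exact Poisson intervals and ratios exact conditional binomial intervals, at 95%. The ratio of medians has an interval formed from the ends of order-statistic intervals of both medians. Where 0 UMIs or cells were counted, up to 3 are allowed, with UMIs or cells taken as independent. Thinning drew 400 UMIs per cell without replacement (seed 7).

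Cells were clustered in scanpy 1.11.5 with Leiden (igraph 0.11.9), the libraries together and not integrated, with 2000 variable genes, 30 components, 15 neighbours and resolution 0.5. Class cells alone were clustered with 1500 variable genes, 15 components and resolution 0.6. Subgroup genes needed a UMI in at least 25% of the subgroup's cells. TMM factors came from edgeR 4.0.16 in R 4.3.3, as an alternative scaling only. Sums, ratios and thinning were checked on simulated data with known answers.

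The named genes were, by rule, the 16 with the highest lower-of-both ratios of class over other cells, the 4 lowest, and the 2 highest and 2 lowest of foxA over control. Other named genes are said to be chosen after their values were seen, lead a subgroup, or are markers of other classes. The alternatives were other cell filters, thresholds of the rule, both rule genes detected, leaving out cells with another class's marker or a shared barcode, thinning, scalings, pseudocounts and gene filters.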

Additional observations from a re-analysis of the deposited data

How the results depend on the processing

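With 1 library per condition, only counting error has been measured, and depth limits what can be said of genes with few UMIs, most of all in the control class. The log2 ratio of the class share, foxA over control, kept its sign in all 12 alternatives but not its size. It was 0.093 in cells of 500 genes or more, 0.10 in cells of 500 UMIs or more, 0.27 after thinning to 400 UMIs, 0.84 with at least 6 UMIs of the rule genes and 0.91 with these at 1% or more of UMIs. In the last setting the ratios within the class were 0.082 for SMESG000002628.1 and 0.16 for SMESG000025209.1. These settings change which cells are counted. The ratio of median UMIs was 1.25 with at least 500 genes. Thinning gives it no value, since every cell then has 400 UMIs.

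The number of genes at least 4-fold higher in the class was 208 with a pseudocount of 50 CPM and stayed within 1.5 times the reported 517 in the other 15 alternatives. The number of genes at least 2-fold apart within the class followed the filter on low counts. It was 66 after thinning, 46 with at least 200 UMIs per gene, 858 with at least 20 UMIs and 5778 with any UMI. It was 173 among genes found in at least 10% of the class cells of 1 library, an alternative chosen after seeing the data, as was leaving out the class cell richest in each gene (316). Of 64 values for leading genes and 55 for genes named within the class under single alternatives, 27 and 6 moved outside their counting interval and 0 changed sign where it excluded 0. SMESG000059878.1, for example, was 6.36 over other cells as reported and 8.11 with a pseudocount of 1 CPM. No paired analysis was possible because foxA and control have a single library each and thus only 1 replicate number in common.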

Other observations

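Among the 3237 genes compared between foxA and control class cells, 7 had identifiers from SMESG000037144.1 to SMESG000037155.1, a run noticed after the values were seen. In the class, 5 of these 7 were at least 2-fold higher in the foxA library, beside 5.5% of all genes compared, with log2 ratios over the 7 genes from -0.083 to 2.69. In all other cells 2 of the 7 were, beside 3.24%, with log2 ratios from -0.80 to 1.25. All 7 were at least 4-fold higher in class cells than in other cells of the foxA library, and 5 were in the control library. Of the 3237 genes, 501 were so in both libraries, and the filter on UMIs in class cells favours such genes. Whether these genes lie beside each other in the genome, or share reads, was not tested.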
